A study of Mus musculus with 4 samples.

Results

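The genes described here answer to ATF4, a transcription factor of the amino acid and protein folding stress response, or supply and charge amino acids for translation. They were taken from a list of 34 symbols covering ATF4, its partners and reported targets, amino acid carriers, enzymes of serine, folate, proline and asparagine metabolism, and cytosolic tRNA synthetases. A member had to have a probe set whose only gene in the platform annotation was on that list. This gave 32 members out of 19938 genes measured in the series, each with 1 probe set. Pycr1, a proline synthesis enzyme, had no such probe set, and the probe set of the alanyl-tRNA synthetase gene Aars was shared with another gene, so neither has values here. The rule itself goes by symbols, although the list was chosen with earlier results of these data known.

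When amino acids run short or unfolded protein builds up in the endoplasmic reticulum, kinases phosphorylate the initiation factor eIF2, which slows most translation but favours translation of Atf4 mRNA. ATF4 pairs with C/EBP family proteins and switches on genes for amino acid uptake, amino acid synthesis and tRNA charging. Secretory cells such as zymogenic cells, which store digestive enzymes in large granules, make much protein and draw heavily on this supply. ATF4 itself is controlled largely at translation, so its mRNA level alone says little about its activity.

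Cells cut by laser capture were profiled on Affymetrix Mouse Gene 1.0 ST arrays. They came from the adult stomach of mice with a C57BL/6 background. The 4 groups, with 1 array each, were zymogenic cells of MIST1 knockout mice, zymogenic cells of wild-type mice, mucous neck cells of MIST1 knockout mice and mucous neck cells of wild-type mice. MIST1, the product of Bhlha15, is a transcription factor that secretory cells need for their full architecture. Neck cells are mucus-secreting cells higher in the gland that are held to give rise to zymogenic cells, and zymogenic cells were cut as non-parietal cells lying basal to the signal of a lectin that binds neck mucus. The design text gives 5 MIST1 knockout and 4 wild-type mice with 2 capture caps per mouse, RNA of several dissections and animals was combined before amplification, and neither the sex of the mice nor how the knockout was made is stated in the labels.

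With 1 array per group there is no replicate spread, so no difference below carries a test, and each is a description of these arrays. Levels are array intensities, and differences are log2 values with a floor at an intensity of 1. A gene counted as detectable in a comparison if at least 1 of its 2 values reached 43.7, the median intensity of all single-gene probe sets. This level goes by size alone, and the background of the arrays is unknown. Intensities of different probe sets cannot be set against each other, and in captured tissue fewer cells of a type and less RNA per cell cannot be told apart.

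Bhlha15, the targeted gene, was lower on both knockout arrays, although whether its probes lie in the deleted stretch is unknown. It read 22 in MIST1 knockout zymogenic cells against 150 in wild-type zymogenic cells, and 20.2 in MIST1 knockout neck cells against 59.7 in wild-type neck cells. The 6 mucous neck markers summed to 689 and 1839 in knockout and wild-type zymogenic cells and to 11845 and 9616 in knockout and wild-type neck cells. Of these, 5 were at least 2-fold lower in zymogenic than neck cells of each genotype. Aqp5 was higher, by 0.56 in knockout and 0.54 in wild-type mice. Of 7 zymogenic markers, Chia1 and Cblif exceeded their neck values at least 2-fold in each genotype. The pepsinogen gene Pga5 went against the label and was far lower in zymogenic cells, by -6.53 in knockout and -5.45 in wild-type mice. Pgc, another pepsinogen gene, hardly separated the cells, at 0.29 in knockout and 0.20 in wild-type mice. It read 10600 and 9980 in knockout and wild-type zymogenic cells, against 8670 and 8700 in knockout and wild-type neck cells. Lipf and Cym lay under the detection level on every array.

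ATF4 binds DNA together with C/EBP proteins at a composite site, the C/EBP-ATF response element. Its core, written TGATGNAA and searched on both strands, was looked up in RefSeq promoter windows of GRCm38.p6 that run from 250 bases before to 50 bases after a gene's start. Of 28 listed genes with a window, 11 held the core, or 39.3%, against 1219 of 27025 genes with a window, or 4.51%. The genes holding it were Trib3, Chac1, Asns, Slc7a11, Pycr1, Vldlr, Nupr1, Aars, Gars, Tars and Yars. No window was at hand for Slc7a5, Slc1a5, Eif4ebp1, Lars, Nars and Wars, so these were not searched. The list was assembled from reported ATF4 targets, so this share follows in part from how the genes were chosen, and a match in letters is not evidence of binding.

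The stretches below lie before the start and are shown because Asns and Nupr1 had 2 of the largest differences between the cell types, while Chac1, Gars and Tars carry the same core without such a difference. Each is written 5′ to 3′ on the strand of the gene, with the core in capitals. The core appears as TTGCATCA or TTTCATCA where it lies on the opposite strand.
Asns (chr6:7693210-7693284, minus strand): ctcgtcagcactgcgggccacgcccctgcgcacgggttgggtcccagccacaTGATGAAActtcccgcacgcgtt
Nupr1 (chr7:126625521-126625632, minus strand): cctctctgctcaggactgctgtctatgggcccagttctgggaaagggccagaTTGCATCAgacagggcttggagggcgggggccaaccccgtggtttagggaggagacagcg
Chac1 (chr2:119350997-119351108, plus strand): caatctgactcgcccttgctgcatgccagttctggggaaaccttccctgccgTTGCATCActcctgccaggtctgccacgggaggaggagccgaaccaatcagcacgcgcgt
Gars (chr6:55037919-55038000, plus strand): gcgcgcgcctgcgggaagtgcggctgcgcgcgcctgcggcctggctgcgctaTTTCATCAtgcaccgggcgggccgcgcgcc
Tars (chr15:11399659-11399725, minus strand): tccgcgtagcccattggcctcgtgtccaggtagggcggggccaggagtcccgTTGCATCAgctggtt

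In these stretches the core begins 23 bases before the start in Asns, 110 in Nupr1, 193 in Chac1, 30 in Gars and 15 in Tars. Its distance from the start thus varied widely among the genes. Slc7a11, the cystine carrier gene, held 2 copies, beginning 66 and 47 bases before its start on opposite strands.

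Across the 4 arrays, 20 of 32 members reached the detection level on every array, 8 on some and 4 on none. The 4 under it throughout were Sesn2, Slc7a11, Psat1 and Shmt2, so nothing firm can be said of the cystine carrier or of these steps of serine and folate metabolism. Among the 28 detectable members, the highest value fell on the knockout zymogenic array for 15 and on the wild-type zymogenic array for 10. It fell on the knockout neck array for 0 and on the wild-type neck array for 3. The same was not counted over all genes, so these counts have no background to be read against. Ddit4, Slc7a5, Mthfd2, Cebpb and Eif4ebp1 reached the detection level on zymogenic arrays alone, so their highest value could fall only there.

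**Figure D1:**
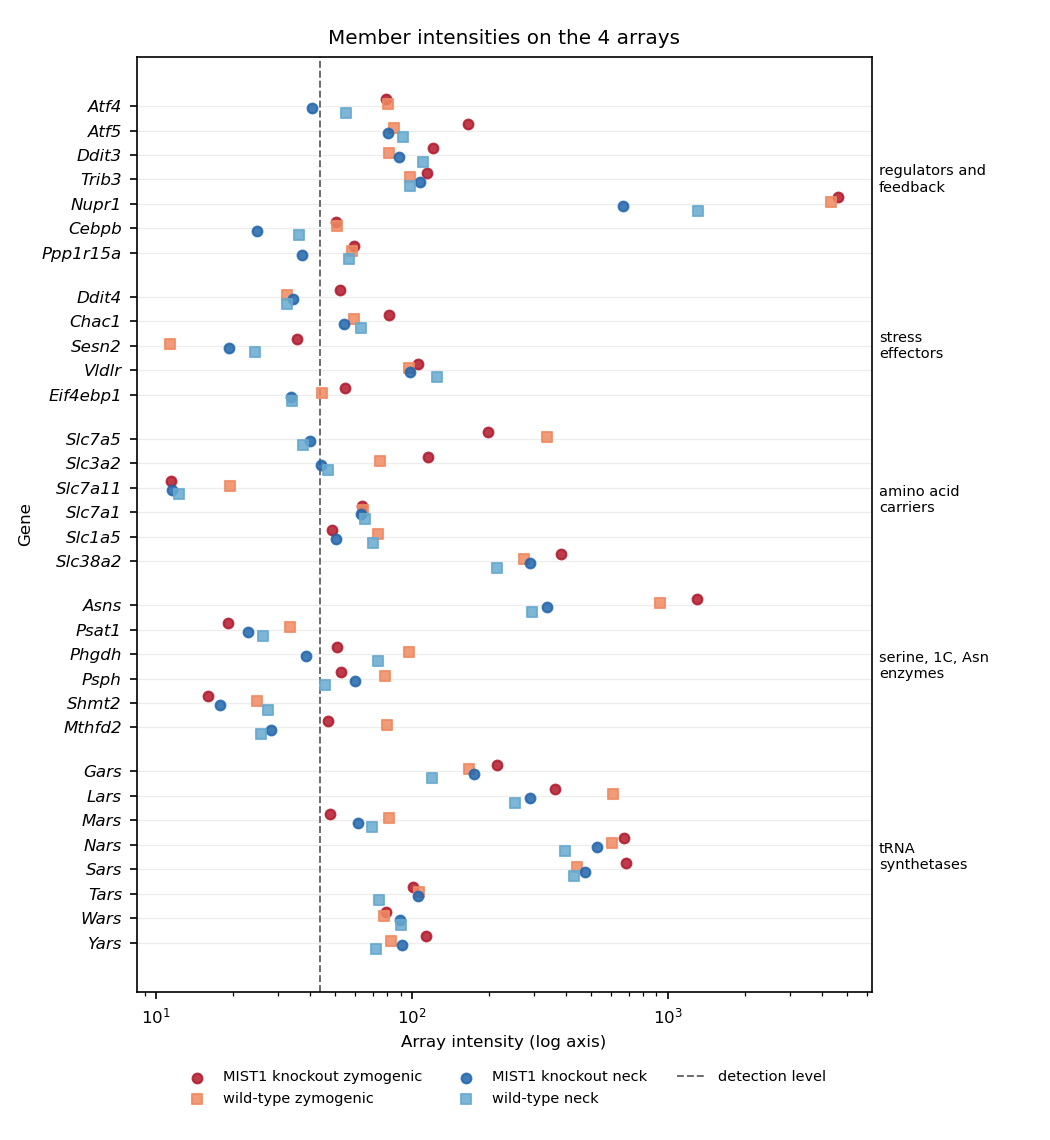
Intensity of the 32 members on the 4 arrays, on a log axis, grouped by role, with 1 point per array and the dashed line at the detection level of 43.7. Red and orange points (zymogenic arrays) lie to the right of blue ones (neck arrays) for Nupr1, Asns and Slc7a5, while points of most other members lie close together.

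The design asks first how zymogenic cells differ from neck cells. The largest differences among members belonged to an amino acid carrier, asparagine synthetase and a stress regulator, each higher in zymogenic cells. In MIST1 knockout mice, 6 of 28 detectable members were at least 2-fold higher in zymogenic than in neck cells, or 21.4%, where 4.9% of all 11322 detectable genes were. That count was 3, where 1.9% of detectable genes were, with a pseudocount of 32, and 4 with a pseudocount of 16 or with median centring, where 2.83% and 4.04% were. In wild-type mice, 5 of 27 were, or 18.5%, where 6.27% of 11778 detectable genes were. No detectable member was at least 2-fold lower in either genotype, where 4.8% of all detectable genes were lower in knockout and 6.78% in wild-type mice.

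The median difference over detectable members was 0.43 in knockout mice, with 23 of 28 above 0, and 0.40 in wild-type mice, with 20 of 27 above 0. Over all detectable genes the medians were 0.05 and 0.02, with 53.9% and 51.6% above 0. In knockout mice 8 members reached the detection level in zymogenic cells alone, namely Atf4, Ddit4, Slc7a5, Phgdh, Mthfd2, Cebpb, Ppp1r15a and Eif4ebp1. In wild-type mice 4 did, namely Slc7a5, Mthfd2, Cebpb and Eif4ebp1, and no member reached it in neck cells alone. The rule could keep these only as higher in zymogenic cells, so the same was read over all 32 members without it. In knockout mice 24 of 32 were then above 0 and in wild-type mice 22 of 32, where 54.4% and 54.0% of all genes were. The medians were 0.41 in knockout and 0.35 in wild-type mice against 0.05 for all 19938 genes in each, with 6 members at least 2-fold higher in knockout mice, and 5 higher and 1 lower, Sesn2, in wild-type mice. All genes gave 4.09% higher in knockout mice, and 5.85% higher and 5.29% lower in wild-type mice. At 1.5-fold, 11 detectable members were higher in knockout and 8 in wild-type mice, where 14.7% and 17.4% of all detectable genes were. Without the detection rule 12 of 32 were higher in knockout mice and 9 of 32 in wild-type mice, where 14% and 16.8% of all genes were, and 0 and 1 were lower, where 10.9% and 14.6% of all genes were. Asns, Slc7a5 and Nupr1 were past 2-fold in both genotypes. Atf5, Slc3a2 and Cebpb were past it in knockout mice and Mthfd2 and Lars in wild-type mice, and whether these differences depend on genotype was not tested.

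**Figure D2:**
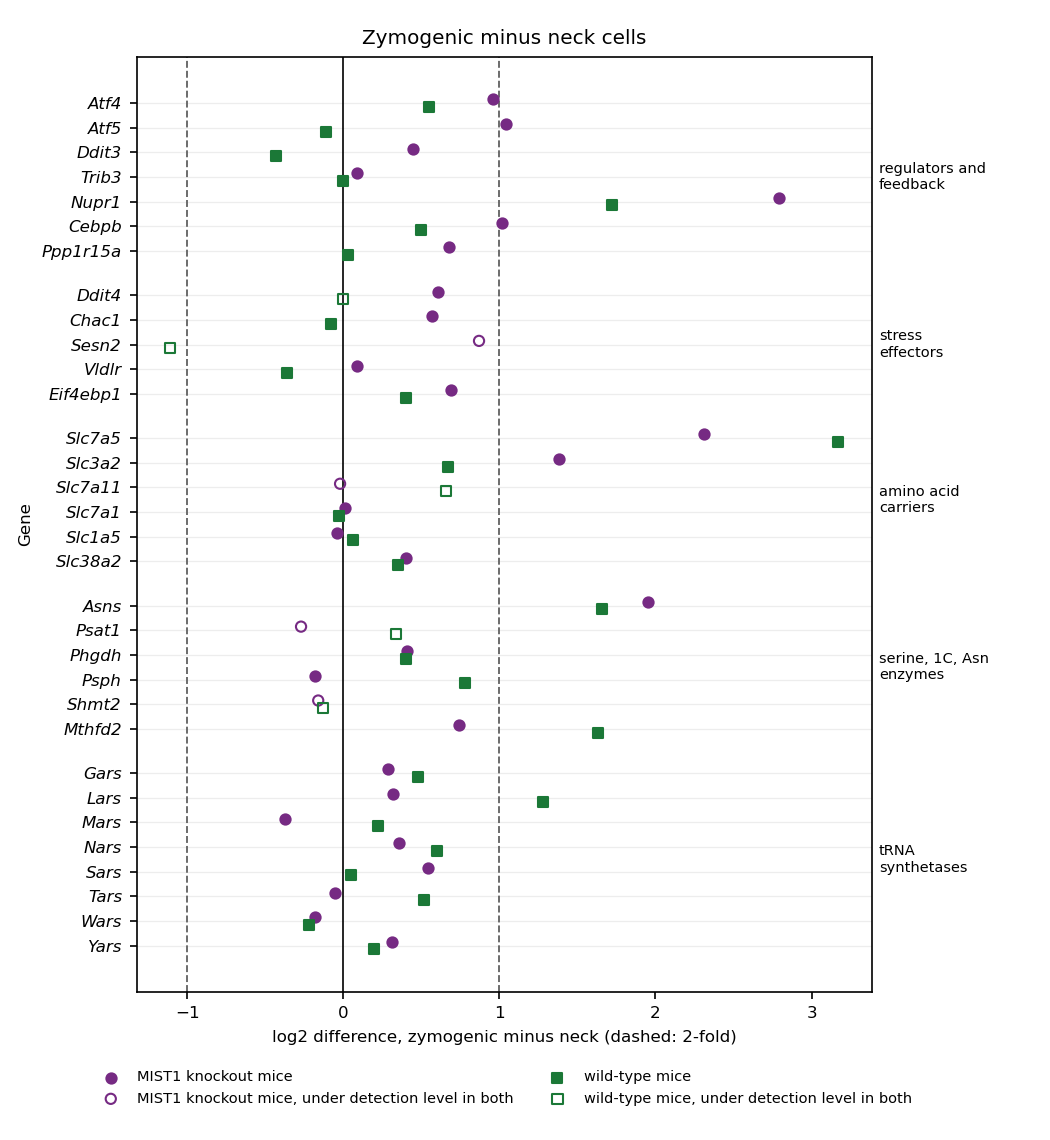
Log2 difference of zymogenic minus neck cells for each member, with knockout mice as purple circles and wild-type mice as green squares, open where both values were under the detection level. Nupr1, Slc7a5 and Asns lie beyond the dashed 2-fold line in both genotypes, and the tRNA synthetases other than Lars lie between the lines.

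The carriers differed widely among themselves. Slc7a5, which imports large neutral amino acids such as leucine, read 198 in knockout zymogenic and 336 in wild-type zymogenic cells, against 39.9 in knockout neck and 37.3 in wild-type neck cells. Both zymogenic arrays were far above both neck arrays, which lay under the detection level, so the sizes are not firm. The log2 differences were 2.31 in knockout and 3.17 in wild-type mice, and only 9 of 11778 detectable genes, this gene included, were as far up in wild-type mice. With a pseudocount of 32 added to every value the differences were 1.68 and 2.41.

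Slc3a2 encodes the heavy chain that Slc7a5 needs to reach the cell surface. It read 115 in knockout zymogenic and 74.7 in wild-type zymogenic cells, against 44.2 in knockout neck and 47 in wild-type neck cells, again with both zymogenic arrays higher. Its differences were 1.38 in knockout and 0.67 in wild-type mice, and the knockout difference was 0.95, under 2-fold, with the pseudocount of 32. The glutamine and small neutral amino acid carriers showed no such step. Slc38a2 differed by 0.40 in knockout and 0.35 in wild-type mice, Slc1a5 by -0.04 and 0.06, and Slc7a1, which imports arginine and lysine, by 0.01 and -0.03. Slc7a11, which imports cystine in exchange for glutamate, read 11.4, 19.4, 11.5 and 12.3 on the knockout zymogenic, wild-type zymogenic, knockout neck and wild-type neck arrays.

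Asns makes asparagine from aspartate and glutamine and is a textbook ATF4 target. It read 1302 in knockout zymogenic and 927 in wild-type zymogenic cells, against 336 in knockout neck and 294 in wild-type neck cells. All 4 values were well above the detection level, and the lowest zymogenic value exceeded the highest neck value. The differences were 1.95 in knockout and 1.66 in wild-type mice. As far up lay 129 of 11322 and 184 of 11778 detectable genes.

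The remaining enzymes of this group lead from glycolysis to serine and on to mitochondrial folate. Mthfd2, a mitochondrial folate enzyme, read 46.9 in knockout zymogenic and 79.9 in wild-type zymogenic cells, against 28 in knockout neck and 25.7 in wild-type neck cells. It stood above the detection level in zymogenic cells only, with differences of 0.74 in knockout and 1.63 in wild-type mice, the last being 0.95 with the pseudocount of 32. Phgdh, which commits glucose carbon to serine, differed by 0.41 and 0.40, and Psph, which releases serine in the last step, by -0.18 in knockout and 0.78 in wild-type mice.

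Among the regulators, Nupr1 stood apart. It encodes a small nuclear protein induced by cell stress and known from the injured exocrine pancreas. Its intensity was 4614 in knockout zymogenic and 4322 in wild-type zymogenic cells, against 667 in knockout neck and 1312 in wild-type neck cells. The zymogenic values lay close together and several fold above both neck values, with differences of 2.79 in knockout and 1.72 in wild-type mice. In knockout mice 35 of 11322 detectable genes were as far up, and in wild-type mice 162 of 11778.

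The transcription factors themselves differed less. Atf4 read 78.7 and 80.7 in knockout and wild-type zymogenic cells, against 40.5 and 55 in knockout and wild-type neck cells, which gave 0.96 and 0.55. Its zymogenic values were nearly equal and the knockout neck value lay under the detection level. Cebpb, a partner of ATF4, differed by 1.02 and 0.50, with values from 24.8 to 50.8, and its knockout difference was 0.53 with the pseudocount of 32. Atf5, a relative of ATF4, differed by 1.04 in knockout and -0.11 in wild-type mice, and its knockout difference was 0.81 with that pseudocount. Ddit3, which encodes CHOP, differed by 0.45 and -0.43. In knockout mice 7 of 7 regulators and feedback genes were above 0 with a median of 0.96. In wild-type mice 4 of 7 were, with a median of 0.03. Over all detectable genes 53.9% and 51.6% were above 0, with medians of 0.05 and 0.02. Atf4, Cebpb and Ppp1r15a reached the detection level in knockout mice, and Cebpb in wild-type mice, through the zymogenic array alone. All 7 measured genes of this group were detectable in each genotype, so the rule left none of them out. Of the feedback genes, Trib3, a pseudokinase that restrains ATF4 and CHOP, differed by 0.09 in knockout and -0.00 in wild-type mice, and Ppp1r15a, which directs the phosphatase of eIF2, by 0.68 in knockout and 0.03 in wild-type mice.

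The stress effectors showed no difference past 2-fold among detectable members. Ddit4, an inhibitor of the growth kinase mTORC1, differed by 0.61 in knockout mice, and Eif4ebp1, a repressor of translation initiation, by 0.69 in knockout and 0.40 in wild-type mice. Chac1, which degrades glutathione, differed by 0.57 and -0.08, and Vldlr, a lipoprotein receptor, by 0.09 and -0.36. Sesn2, a leucine sensor, read 35.4, 11.3, 19.3 and 24.4 on the knockout zymogenic, wild-type zymogenic, knockout neck and wild-type neck arrays, all under the detection level.

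The cytosolic tRNA synthetases, which join each amino acid to its tRNA, mostly differed by less than 1.5-fold between the cell types. At 1.5-fold, 0 of 8 were higher in zymogenic cells of knockout and 2 of 8 of wild-type mice, where 14.7% and 17.4% of all detectable genes were. None was lower, where 12.3% and 17.3% of all detectable genes were. Their median was 0.30 in knockout mice, with 5 of 8 above 0, and 0.35 in wild-type mice, with 7 of 8 above 0. All detectable genes gave medians of 0.05 and 0.02, with 53.9% and 51.6% above 0. Lars, the leucyl enzyme, read 361 in knockout zymogenic and 607 in wild-type zymogenic cells, against 288 in knockout neck and 251 in wild-type neck cells. It was the single synthetase past 2-fold, at 1.28 in wild-type mice, and it differed by 0.32 in knockout mice. Nars (asparaginyl) differed by 0.36 and 0.60, Gars (glycyl) by 0.29 and 0.48, Sars (seryl) by 0.54 and 0.05, Tars (threonyl) by -0.05 and 0.52, and Yars (tyrosyl) by 0.31 and 0.20. Wars, the tryptophanyl enzyme, was a little lower in zymogenic than in neck cells of each genotype, at -0.18 and -0.22. Mars, the methionyl enzyme, differed by -0.37 in knockout and 0.22 in wild-type mice.

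Both sets of cell type differences rest on separate arrays. Of 27 members detectable in both, 16 were above 0 in both genotypes, 1 was below 0 in both and 10 had opposite signs. Over the 10165 genes detectable in both, 31.5% were above 0 in both and 29.1% below. Pearson's r was 0.69 across these 27 members and 0.49 across those genes, as a description across genes of 2 array pairs, and genes are not independent replicates.

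Summed markers of endocrine, stromal, immune and surface mucous cells were also larger in zymogenic cells. The 6 endocrine markers summed to 12793 and 8743 in knockout and wild-type zymogenic cells, and to 3703 and 5762 in knockout and wild-type neck cells, with 5 and 4 of them at least 2-fold higher in zymogenic cells. The 10 fibroblast and smooth muscle markers summed to 1487 and 1357 against 382 and 533, with 6 of 10 at least 2-fold higher in each genotype. The 10 immune markers summed to 578 and 635 against 289 and 443, with 4 at least 2-fold higher in knockout mice, and 2 higher and 1 lower, Cd53, in wild-type mice. The 4 surface mucous markers summed to 3463 and 3347 against 1944 and 2108, with 0 past 2-fold. The 8 parietal markers summed to 7996 and 4541 against 9318 and 8589. Of these, 2 were at least 2-fold lower and 1, Aqp4 (1.13), higher in knockout mice, and 5 were lower in wild-type mice. No defining marker was at 0 on any array, which says little, since the lowest value of any probe set was 0.86. The endocrine, stromal, immune, surface mucous and zymogenic sums were all lowest on the knockout neck array. Of the 28 members detectable on any array, 10, Nupr1 among them, were lowest there and 11 on the wild-type neck array. The part of endocrine, stromal, immune, surface mucous and parietal cells in the member differences was not tested.

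The second question of the design is what MIST1 loss alters in each cell type. No detectable member passed 2-fold between genotypes in either one. In zymogenic cells this was 0 of 28 each way, where 5.15% of 11826 detectable genes were at least 2-fold higher and 5.23% lower. In neck cells it was 0 of 23 each way, where 1.89% of 10966 were higher and 2.4% lower.

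At 1.5-fold, 4 of 28 members were higher in knockout zymogenic cells, or 14.3%, and 6 were lower, or 21.4%. All detectable genes gave 16.6% and 15.2%, so the members' shares lay near the background, the lower share somewhat above it. In neck cells 0 of 23 were higher and 3 lower, or 13%, where all detectable genes gave 8.75% and 9.96%. Of those 3, Phgdh and Ppp1r15a reached the detection level in wild-type neck cells alone. Without the detection rule 5 of 32 were higher and 9 lower in zymogenic cells, where 14% and 16.5% of all genes were, and 0 were higher and 4 lower in neck cells, where 7.95% and 11.4% were. The median difference over detectable members was 0.10 in zymogenic and -0.06 in neck cells, against 0.04 and 0.00 for all detectable genes. With the detection level at the 75th percentile the medians were 0.22 over 17 members and 0.17 over 14, against 0.08 and 0.06 for all genes kept, so the sign in neck cells depended on the filter. The 8 parietal markers summed to 7996 in knockout against 4541 in wild-type zymogenic cells, with 3 of 8 at least 2-fold higher, and their part in the zymogenic differences was not tested.

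**Figure D3:**
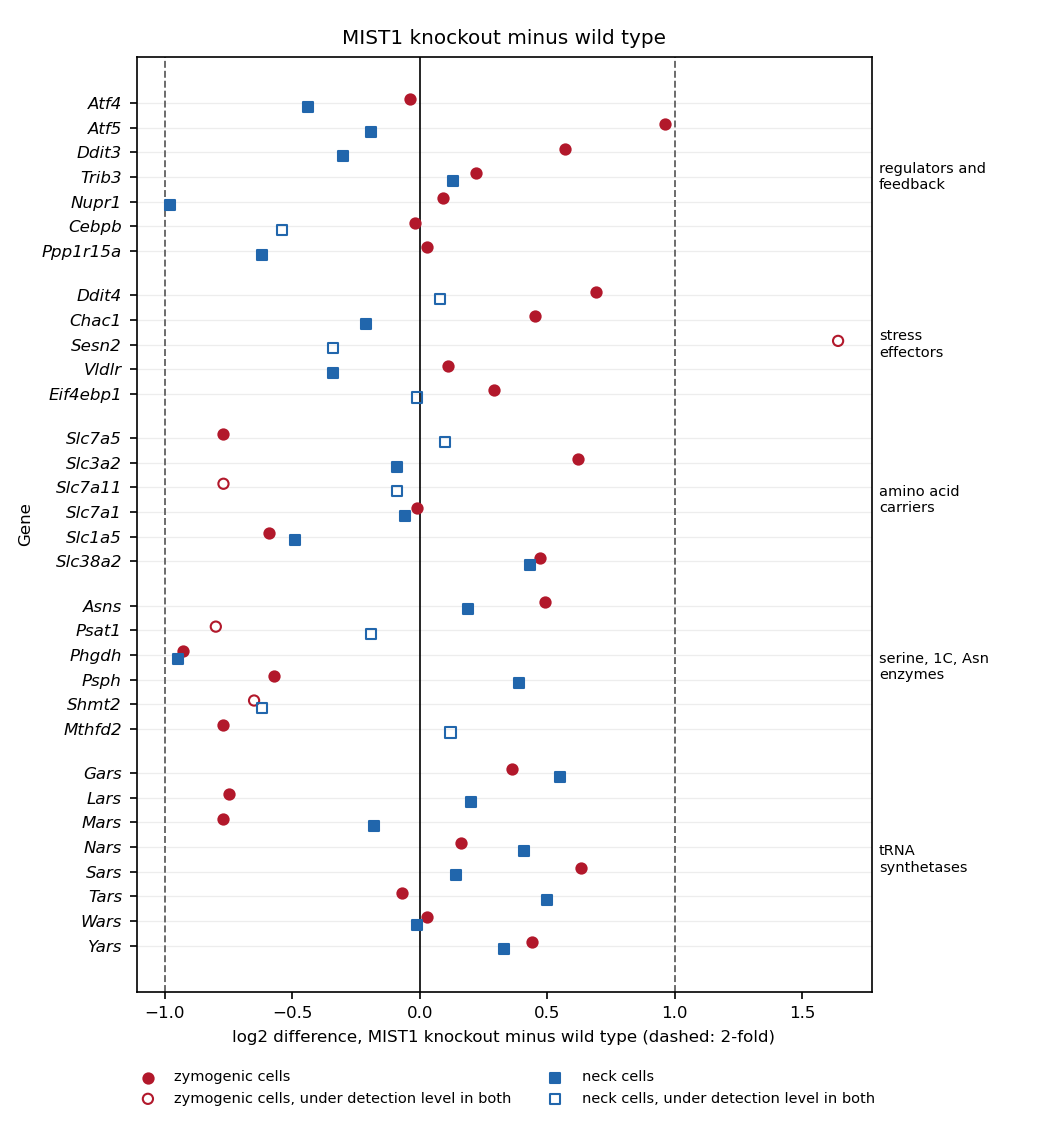
Log2 difference of MIST1 knockout minus wild type for each member, with zymogenic cells as red circles and neck cells as blue squares, open where both values were under the detection level. No filled point reaches the dashed 2-fold lines, and Phgdh lies near -0.9 in both cell types.

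Phgdh was lower in knockout cells of both types by nearly the same amount. It read 51 in knockout zymogenic against 97.2 in wild-type zymogenic cells, and 38.3 in knockout neck against 73.8 in wild-type neck cells. Both knockout arrays lay under both wild-type arrays, and the differences were -0.93 and -0.95. As far down lay 754 of 11826 detectable genes in zymogenic and 310 of 10966 in neck cells. The knockout neck value was under the detection level.

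No serine or folate enzyme among the members, Phgdh included, was past 2-fold between genotypes in zymogenic cells. Psph read 52.9 in knockout against 78.6 in wild-type zymogenic cells, and Mthfd2 read 46.9 against 79.9, a difference of -0.77. Psat1 read 19 against 33.2 and Shmt2 read 15.9 against 24.8, all 4 values under the detection level. Asns went the other way by 0.49 in zymogenic cells and by 0.19 in neck cells.

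The paired carrier chains Slc7a5 and Slc3a2 differed in opposite directions in zymogenic cells. Slc7a5 was lower in knockout cells by -0.77 and Slc3a2 higher by 0.62, while in neck cells they differed by 0.10 and -0.09. Slc1a5, a glutamine carrier, was lower in knockout cells of both types, at -0.59 and -0.49, and Slc38a2, which takes up small neutral amino acids, was higher in both, at 0.47 and 0.43. Slc7a1 was nearly level, with 63.5, 64, 62.9 and 65.5 on the knockout zymogenic, wild-type zymogenic, knockout neck and wild-type neck arrays.

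Among detectable regulators, 5 of 7 were above 0 in zymogenic cells, with a median of 0.09, and 1 of 6 in neck cells, with a median of -0.37. All detectable genes gave 52.9% and 50.2% above 0, with medians of 0.04 and 0.00. Of the 6 in neck cells, Atf4 and Ppp1r15a reached the detection level on the wild-type array alone, so the rule could keep them only as lower. Atf5 read 165 in knockout against 85 in wild-type zymogenic cells, a difference of 0.96, and 80.6 in knockout against 91.9 in wild-type neck cells, a difference of -0.19. Ddit3 differed by 0.57 in zymogenic and -0.30 in neck cells and Chac1 by 0.45 and -0.21. All 4 detectable effectors were above 0 in zymogenic cells, with a median of 0.37 and Ddit4 highest at 0.69, and both detectable in neck cells were below 0. Ddit4 reached the detection level there on the knockout zymogenic array alone, so the rule could keep it only as higher. Atf4 was level between genotypes in zymogenic cells, at -0.04, and lower in knockout neck cells, at -0.44.

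Nupr1 had the largest genotype difference of any member in neck cells. Its values of 667 in knockout and 1312 in wild-type neck cells gave -0.98, and those in zymogenic cells gave 0.09. As far down in neck cells lay 287 of 10966 detectable genes. Under quantile normalization the neck difference was -1.01 and under cyclic loess -1.02, just past 2-fold. Ppp1r15a and Cebpb were lower in knockout neck cells as well, at -0.62 and -0.54, Cebpb with both values under the detection level, and differed by 0.03 and -0.02 in zymogenic cells. Whether any of these genotype differences differed between cell types was not tested, since no array was repeated. Beside these values, the endocrine marker sum was 3703 in knockout against 5762 in wild-type neck cells, with 3 of 6 at least 2-fold lower, and the part of those cells was not tested.

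The synthetases did not move as 1 group with genotype. In zymogenic cells 5 of 8 were above 0 with a median of 0.09. Mars at -0.77 and Lars at -0.75 were lowest, and Sars at 0.63 and Yars at 0.44 were highest. In neck cells 6 of 8 were above 0 with a median of 0.27, led by Gars at 0.55, Tars at 0.50 and Nars at 0.41, none of them at 1.5-fold. All detectable genes gave 52.9% above 0 with a median of 0.04 in zymogenic cells, and 50.2% with a median of 0.00 in neck cells. Wars was nearly level between genotypes, at 0.03 in zymogenic and -0.01 in neck cells.

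Both sets of genotype differences also rest on separate arrays. Of 23 members detectable in both cell types, 7 were above 0 in both, 5 below 0 in both and 11 had opposite signs, and of all genes detectable in both, 30.7% were above 0 in both and 24.6% below. Pearson's r was 0.25 across these members and 0.17 across the 9857 genes detectable in both.

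**Figure D4:**
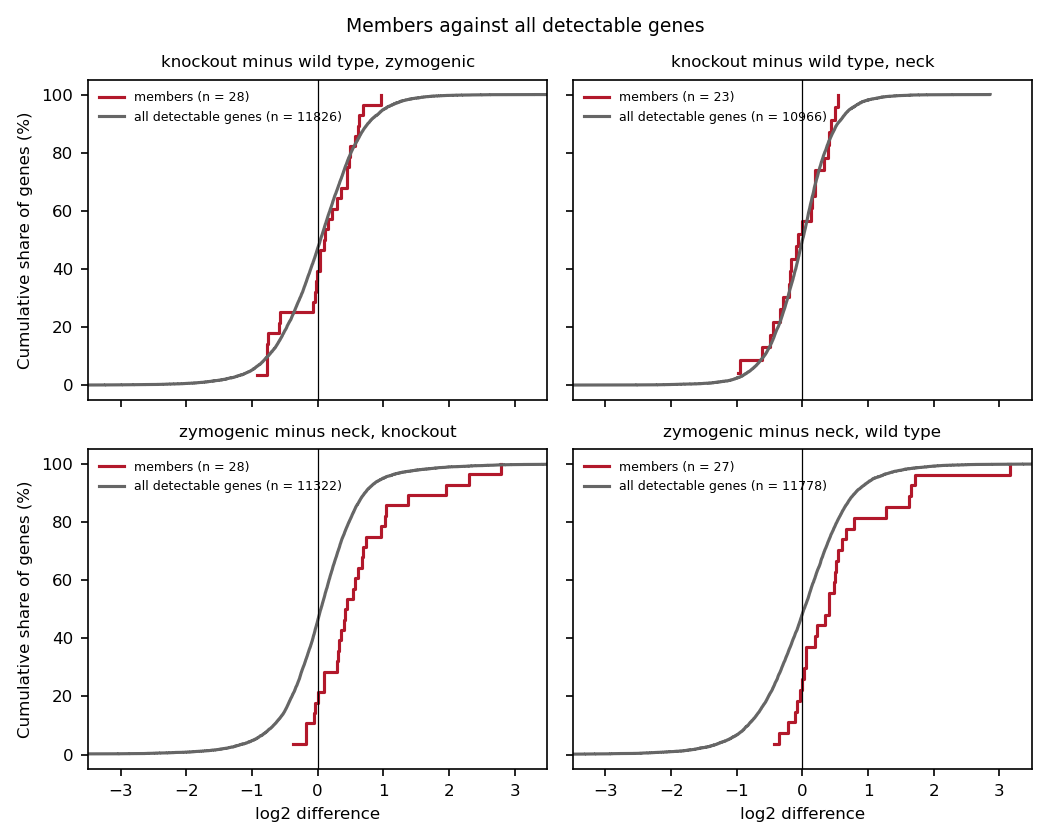
Cumulative share of genes by log2 difference, for detectable members in red and all detectable genes in grey, with 1 panel per comparison. In the genotype panels (top) the curves run close together, with member medians of 0.10 and -0.06, and in the cell type panels (bottom) the members lie to the right, with medians of 0.43 and 0.40, where 8 and 4 members passed the detection rule through the zymogenic array alone.

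Further genes of the same pathway were read on 5 lists that hold no member. Their median zymogenic minus neck differences ran from -0.21 to 0.36. A further list without members, of ATF6 and XBP1 arm genes, is described at the end and had medians of 0.61 in knockout and 0.46 in wild-type mice. Of 13 measured cytosolic synthetases and scaffold proteins outside the member list, 12 were detectable in knockout mice. Their median zymogenic minus neck difference was 0.02, with 0 past 2-fold. In wild-type mice 13 were, with a median of 0.28 and 1 past 2-fold, Farsb, a phenylalanyl synthetase subunit, at -1.01. All detectable genes gave 4.9% past 2-fold higher and 4.8% lower in knockout mice, and 6.27% and 6.78% in wild-type mice. Hars, the histidyl enzyme, was lower in knockout than wild-type zymogenic cells by -1.06. Mitochondrial synthetases had medians of -0.12 in knockout and -0.21 in wild-type mice. Wars2 was lower in knockout zymogenic than knockout neck cells by -1.53, and Vars2 was lower in wild-type zymogenic than wild-type neck cells by -2.78, with 14.3 against 98.3. Between genotypes in zymogenic cells Vars2 was higher in knockout cells by 2.20, with 65.6 against 14.3, the wild-type zymogenic value standing far below the other 3 arrays.

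The kinases and factors upstream of ATF4 were measured for 12 genes. Eif2ak3, the endoplasmic reticulum stress kinase PERK, read 177 in knockout zymogenic against 98.2 in wild-type zymogenic cells and 118 in knockout neck against 144 in wild-type neck cells. Eif2ak4, the amino acid sensing kinase GCN2, read 41.2 in knockout against 41.1 in wild-type zymogenic cells, both under the detection level, and 55.1 in knockout against 53.2 in wild-type neck cells. The eIF2 gamma subunit gene Eif2s3x was higher in knockout zymogenic cells by 1.41, with 376 against 142, the wild-type zymogenic value being the lowest of the 4 arrays. In wild-type mice Eif2b3, an eIF2B subunit gene, was higher in zymogenic than neck cells by 1.25, and Eif2ak2, the kinase PKR, and Eif2s3x were lower by -1.29 and -1.05. The list's median zymogenic minus neck difference was 0.13 in each genotype.

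Of 22 further reported ATF4 targets and partners measured, 13 were detectable between the cell types in knockout mice, with a median of 0.10. In wild-type mice 14 were, with a median of 0.13. Past 2-fold upwards were 1 in knockout and 3 in wild-type mice, where 4.9% and 6.27% of all detectable genes were. Past 2-fold downwards were 0 in each, where 4.8% and 6.78% of all detectable genes were. Atf3, a stress-induced relative of ATF4, was the gene past 2-fold in knockout mice, at 1.26. Aldh1l2 (1.90), a mitochondrial folate enzyme, Slc1a4 (1.62), a serine and alanine carrier, and Cth (1.13), a cysteine synthesis enzyme, were past it in wild-type mice. In these comparisons the 4 genes reached the detection level in zymogenic cells alone, so the sizes are not firm. Between genotypes in zymogenic cells, Atf3 was higher in knockout cells by 1.34 and Aldh1l2 and Stc2, a secreted glycoprotein, were lower by -1.65 and -1.05.

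Other amino acid carriers varied gene by gene. Slc1a2, a glutamate carrier, read 201 in knockout zymogenic and 61.4 in wild-type zymogenic cells, against 25.9 in knockout neck and 24.4 in wild-type neck cells. It was past 2-fold between cell types in both genotypes, by 2.96 and 1.33, and between genotypes in zymogenic cells, by 1.71. Slc1a3, another glutamate carrier, ran the opposite way, with 27.1 and 27.8 in knockout and wild-type zymogenic cells against 122 and 212 in knockout and wild-type neck cells. Slc7a2, a carrier of cationic amino acids, was lower in knockout than wild-type zymogenic cells by -1.85 and higher in knockout than wild-type neck cells by 1.28, and in wild-type mice it was higher in zymogenic than neck cells by 2.39. Slc1a1, a glutamate carrier, and Slc38a1, a glutamine carrier, were higher in knockout than wild-type zymogenic cells by 1.23 and 1.06. Of 24 measured carriers outside the list, 12 were detectable between cell types in each genotype, with medians of 0.36 in knockout and 0.16 in wild-type mice.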

How the data were processed

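Each of the 4 groups was measured on 1 array. The deposited table holds intensity values per probe set, linear and between 0.86 and 14251, and per the series design text the authors ran quality control and array comparisons in dChip. No label states the background correction, probe summary or scaling, so signal over background is unknown. Precision is limited by having 1 array per group. Array medians lay from 37.9 to 40.9.

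The platform annotation paired 21789 of 35512 probe sets with 1 gene and 1621 with several, and did not list 12102. By Entrez identifier, 21698 single-gene probe sets matched RefSeq genes of GRCm38.p6, with 0 symbols changed, and Mars stands as Mars1 there. Where probe sets shared a gene, the brightest on average was kept, leaving 19938 genes. Values were floored at 1 and taken as log2. No test was possible, and a difference counted from 2-fold. All members were described, as were, on the other lists, up to 3 detectable genes each way past 2-fold per comparison and genes of the eIF2 kinase list. Members and lists were chosen with earlier results of these data known. Alternatives were pseudocounts of 16 and 32, quantile normalization, cyclic loess, median centring, no filter, a 75th percentile filter, the mean over probe sets and 1.5-fold. The calling code was checked on copies of 1 array with planted differences and no noise, and the motif search on made-up strings. That check says nothing of how calls between real single arrays hold up. Tools were Python 3.11.15, pandas 2.3.3, R 4.3.3 and limma 3.58.1.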

Additional observations from a re-analysis of the deposited data

How the results depend on the processing

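No paired analysis was possible because each group holds 1 array, and for the same reason no array could be left out. Over 9 alternatives, no member past 2-fold changed sign. Asns, Slc7a5, Nupr1 and Lars kept every 2-fold difference they had under the 6 that could remove one. The other 3 (no filter, 1.5-fold and the mean over probe sets, since each member has 1 probe set) could not. With a pseudocount of 32, members at least 2-fold higher in zymogenic than neck cells of knockout mice numbered 3 in place of 6, against 1.9% of detectable genes, and the wild-type median was 0.28 in place of 0.40. With a pseudocount of 16, Atf5 (0.91) and Cebpb (0.70) were under 2-fold in knockout mice. Under quantile normalization and cyclic loess, 1 member, Nupr1, was at least 2-fold lower in knockout neck cells in place of 0, and Cebpb between cell types of knockout mice was 0.95 and 0.94; the cause was not tested. Under median centring Atf5 was 0.95 and Cebpb 0.93 in that comparison. With no filter on low values, Sesn2 was counted as 1 member higher in knockout than wild-type zymogenic cells (1.64) and 1 lower in wild-type zymogenic than neck cells (-1.11). With the 75th percentile filter, which removes members, Mthfd2 and Cebpb among them, the genotype medians were 0.22 in zymogenic and 0.17 in neck cells, in place of 0.10 and -0.06. At 1.5-fold, 4 members were higher and 6 lower in knockout zymogenic cells, 3 were lower in knockout neck cells, and 11 in knockout and 8 in wild-type mice were higher in zymogenic than neck cells. Low intensities limit the sizes for Slc7a5, Mthfd2 and Cebpb.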

Other observations

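The ATF6 and XBP1 arms of the unfolded protein response, which raise chaperones alongside the ATF4 arm, were read beside the members. Past 2-fold between the cell types were 2 of 17 detectable genes in knockout and 2 of 16 in wild-type mice, all higher in zymogenic cells, where 4.9% and 6.27% of all detectable genes were higher. Of the 17 detectable genes in knockout mice, 16 were above 0 with a median zymogenic minus neck difference of 0.61, and of the 16 in wild-type mice, 13 were above 0 with a median of 0.46. All detectable genes gave 53.9% and 51.6% above 0, with medians of 0.05 and 0.02. At 1.5-fold, 9 of 17 were higher and 0 lower in knockout mice, where 14.7% and 12.3% of all detectable genes were. In wild-type mice 4 of 16 were higher and 2 lower, where 17.4% and 17.3% of all detectable genes were. Those 2 were Atf6 (-0.68) and Edem1 (-0.64), which helps clear misfolded proteins, both named after their values were seen. Hyou1, an ER chaperone, was past 2-fold in knockout mice at 1.28, Creld2 in wild-type mice at 1.60, and Dnajc3, a co-chaperone that also inhibits PERK, in both at 1.05 and 1.06. Between genotypes the list's median was 0.46 in zymogenic and 0.23 in neck cells, against 0.04 and 0.00 for all detectable genes. Atf6 itself was higher in knockout than wild-type zymogenic cells by 1.39, with 183 against 70.2.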
